A study of Mus musculus with 14 samples.

Results

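The genes described here are 8 markers of lymphatic endothelium, Prox1, Flt4, Lyve1, Pdpn, Ccl21a, Reln, Mmrn1 and Sox18, chosen by symbol. They fill 9 of the 15894 rows of the expression table, because the symbol Ccl21a stands on 2 rows with different identifiers, which were kept apart throughout. RNA was measured in the outer layer of fetal mouse hearts at E16.5, that is the epicardium with the tissue directly under it, dissected separately from the ventral and the dorsal face. There were 3 female ventral and 3 female dorsal libraries (pools 1 to 3), 4 male ventral libraries (pools 4 to 7) and 3 male dorsal libraries (pools 4 to 6), each made from poly(A) RNA of 2 pooled hearts. Pool numbers are the control numbers of the titles. That a ventral and a dorsal library of equal number come from the same hearts is assumed. All hearts carry the genotype Tbx18Cre in the sample labels, a Cre allele driven from Tbx18, which is active in epicardium, whereas the study's text calls the hearts wild type, so the ventral and dorsal groups share whatever this allele does. No treatment was given. A further male library of pool 7 is dorsal by its title and source and ventral by its tissue field, so it entered no regional test. Nothing in the labels says whether the hearts of different pools came from separate litters, only that several litters were used, so the p-values measure the spread between these pools.

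Lymphatic endothelial cells line the vessels that drain tissue fluid. Most of them arise from veins, where SOX18 and NR2F2 turn on Prox1, the transcription factor that sets and keeps lymphatic fate. PROX1 in turn keeps up Flt4, which encodes VEGFR3, the receptor through which VEGFC and VEGFD drive lymphatic growth. In the fetal heart these vessels spread over the ventricles just beneath the epicardium. Several of the 8 genes are also active in other cells of the heart surface: Pdpn in epicardium and other mesothelium, Lyve1 in resident macrophages, Prox1 in cardiomyocytes, Mmrn1 in megakaryocytes and platelets, and Sox18 in blood endothelium. In RNA from whole tissue, fewer lymphatic cells and less RNA per lymphatic cell cannot be told apart.

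Reads on the listed genes totalled 13.9 to 25.2 M per library (median 20.4 M). Values are the authors' normalized CPM, in which 3 reads, taken as the floor of detection, correspond to 0.135 to 0.253. All 10 epicardial markers were above the floor in all 14 libraries, with summed levels of 281 to 6080 normalized CPM, and the 10 ventricular cardiomyocyte markers summed to 17476 to 46797, so muscle RNA was present in every library. Macrophage markers (12 genes) summed to 123 to 1019 and blood endothelial markers (12 genes) to 456 to 1738. The lowest blood endothelial sum belonged to male ventral pool 7, and in the other 3 male ventral libraries it was 1271 to 1407.

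All 8 symbols were detected in each group, with one exception among the rows: the scaffold row of Ccl21a had 0 reads in every male dorsal library. Levels differed widely between the genes. Per kilobase of annotated exon, the level of the main Ccl21a row averaged 817 normalized CPM in female ventral libraries, that of Pdpn 81.1, Lyve1 52.1, Mmrn1 10.1, Prox1 8.81, Sox18 7.15, Flt4 6.64 and Reln 0.854. In that order only Lyve1 lay above Mmrn1, and Flt4 above Reln, in every library of the group; other neighbours overlapped. In male dorsal libraries the level per kilobase of Ccl21a averaged 81.6 and that of Pdpn 71.4, and these overlapped because the Ccl21a values spanned the whole range from a library with 0 reads to 244.

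**Figure D1:**
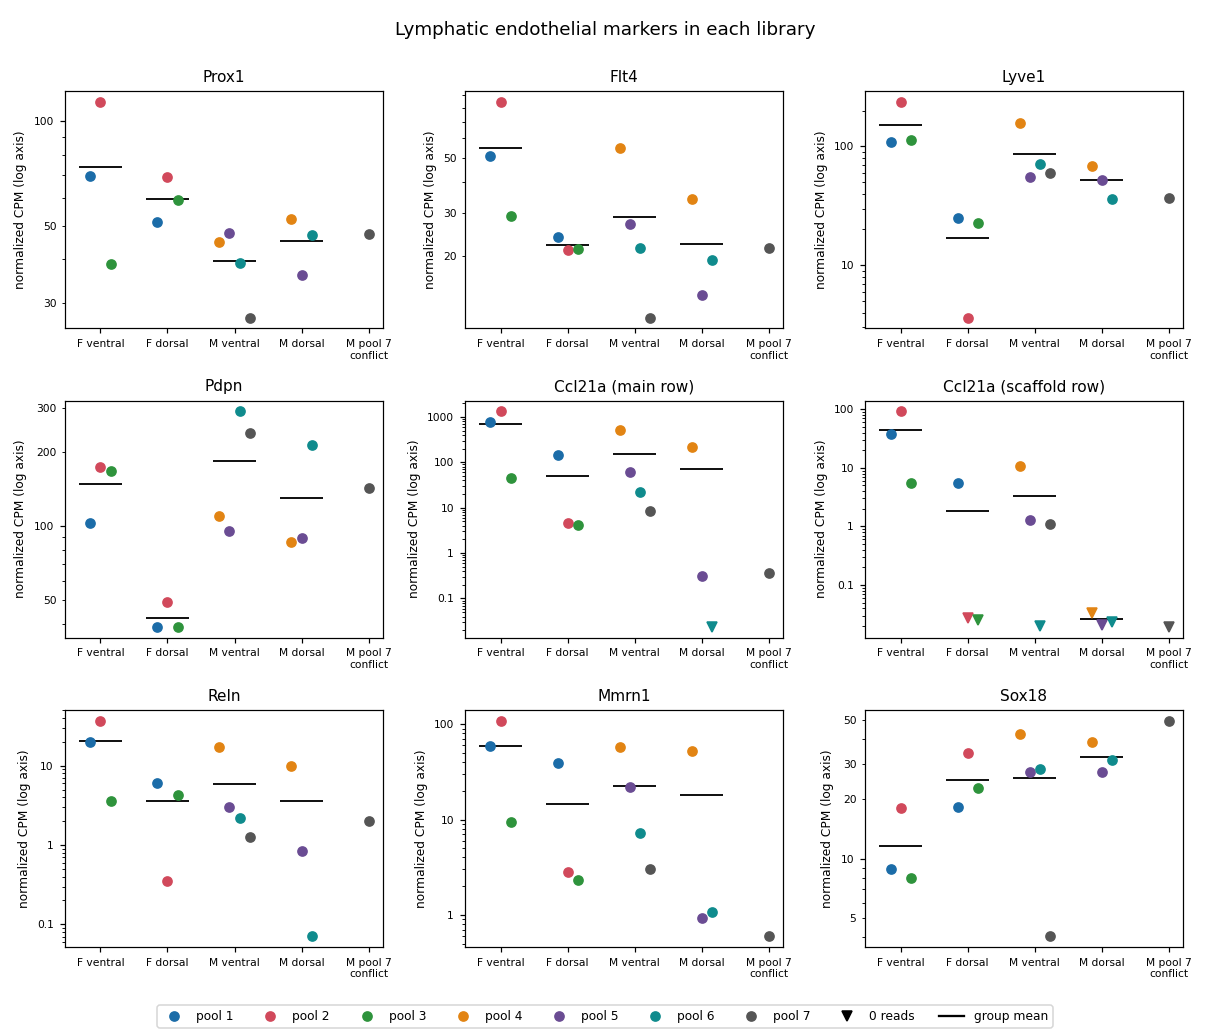
Level of each marker in each of the 14 libraries (y axis, normalized CPM, log axis) by sex and region (x axis; F female, M male); points are libraries coloured by pool, triangles are libraries with 0 reads, and bars are group means. Female ventral points of Pdpn and Lyve1 all lie above the female dorsal ones, while the main Ccl21a row, Reln and Mmrn1 scatter 10.5-fold or more within each group.

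The first comparison asked which markers differ between the ventral and the dorsal face of female hearts. Of the 9 rows, 5 were higher ventrally (Pdpn, Lyve1, Flt4 and both Ccl21a rows) and 1 was higher dorsally (Sox18) at a limma adjusted p under 0.05. Over all genes, 27.8% of 14411 were called in this comparison, 14.5% higher ventrally and 13.3% higher dorsally. The 9 rows had a median log2 change of 2.06 against 0.01 for all genes. The ventral and dorsal values did not overlap for 4 rows with ventral values on top (Pdpn, Lyve1, Flt4 and the scaffold row of Ccl21a), where 23.2% of all genes do the same. They did not overlap either for Sox18 in the opposite direction, where the share of all genes is 21.6%. When pool number entered the fit as a block, Reln (adjusted p = 0.0469) and Mmrn1 (adjusted p = 0.0138) were called as well, in a fit that called 29.6% of all genes and left Prox1 as the only row without a call. The same block in edgeR called neither Reln (adjusted p = 0.169) nor Mmrn1 (adjusted p = 0.0514).

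**Figure D2:**
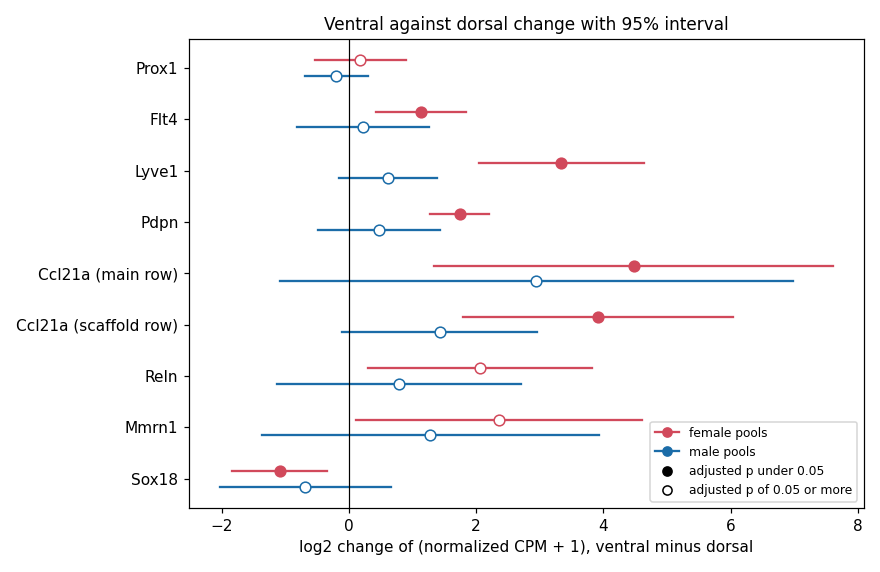
Log2 change of each marker, ventral minus dorsal (x axis, on log2 of normalized CPM + 1), with its 95% interval from limma; red is female pools, blue is male pools, and filled points have an adjusted p under 0.05. Filled points occur only among the female changes, and every interval of the male changes includes 0.

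Prox1 (chr1:190118035-190170714, minus strand, GRCm38) was the steadiest of the markers. Its level was 69.6, 113 and 38.7 normalized CPM in female ventral pools 1, 2 and 3, and 51.3, 69.0 and 59.3 in the dorsal libraries of the same pools. Ventral values thus lay on either side of the dorsal ones. The log2 change was 0.18 ± 0.318 (SE, n = 3 and 3, limma adjusted p = 0.706), with a 95% interval from -0.53 to 0.89. In male hearts the level was 44.7, 47.5, 39.0 and 27.2 ventrally and 52.1, 36.0 and 47.1 dorsally, again overlapping. The spread of Prox1 over the 14 libraries, as the SD of log2(normalized CPM + 1), was 0.488, close to the median of all genes (0.452). Of the 10 cardiomyocyte markers, 1 was called ventrally in female hearts (Ryr2) and 0 dorsally by limma (3 had an unadjusted p under 0.05), and their most abundant members Tnnt2 and Actc1 averaged 6343 and 4963 normalized CPM in female ventral libraries and 9282 and 9025 in dorsal ones. The part of cardiomyocytes in the Prox1 level was not tested.

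Sox18 (chr2:181669836-181671640, minus strand), a transcription factor upstream of Prox1, was the marker with a call in the dorsal direction. Its level was 8.84, 17.9 and 8.01 normalized CPM in the 3 female ventral libraries and 18.1, 34.3 and 22.7 in the 3 dorsal ones. Every dorsal library was above every ventral one, though ventral pool 2 and dorsal pool 1 differed by little. On the log2 scale the change was -1.09 ± 0.333 (SE, limma adjusted p = 0.0366). Sox7 and Sox17, the other members of the SoxF group, were also higher dorsally: Sox7 averaged 12.8 ± 8.58 (SD, n = 3) ventrally and 44.0 ± 6.60 dorsally (log2 change -1.87, adjusted p = 0.00576), and Sox17 6.56 ± 5.37 ventrally and 27.3 ± 6.56 dorsally (log2 change -2.10, adjusted p = 0.0069). In male hearts Sox18 was 42.5, 27.4, 28.3 and 4.06 ventrally and 38.7, 27.3 and 31.6 dorsally. The lowest of these was the pool 7 ventral library, which also had the lowest blood endothelial sum. Of the 12 blood endothelial markers, 0 were called by limma in female hearts (0 also had an unadjusted p under 0.05), with a median log2 change of 0.03, and the most abundant, Fabp4 and Eng, averaged 551 and 93.7 ventrally against 562 and 88.5 dorsally. The Sox18 call was lost when female ventral pool 1 or 3 or dorsal pool 2 or 3 was left out, and without the eBayes trend (limma adjusted p = 0.0616).

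Nr2f2, Gata2 and Foxc2, other transcription factors of lymphatic endothelium, had no call in female hearts. Nr2f2, a partner of PROX1, averaged 59.1 ± 6.44 normalized CPM ventrally and 39.4 ± 19.2 dorsally (n = 3 each, log2 change 0.70, adjusted p = 0.143). Gata2 averaged 4.31 ± 0.465 and 5.68 ± 1.83 (log2 change -0.30, adjusted p = 0.502), and Foxc2, needed for lymphatic valves, 2.03 ± 0.601 and 0.800 ± 0.575 (log2 change 0.78, adjusted p = 0.130). Of the 16 other lymphatic genes looked at beside the markers, 14 had rows and 13 passed the filter in female hearts. Of these, 1 was higher ventrally (Fxyd6, 80.0 ± 14.3 against 35.7 ± 8.28, log2 change 1.15, adjusted p = 0.00358) and 3 were higher dorsally (Sox7, Sox17 and Gja1). The share called among all genes tested, 27.8%, was close to that of these 13. Gja1, a gap junction gene of lymphatic valves that cardiomyocytes also express, averaged 524 ± 126 ventrally and 1126 ± 206 dorsally. The 13 had a median log2 change of -0.15, beside 2.06 for the 9 rows of the markers. They include genes also active in other cells, such as Gja1 and Mmrn2, a gene of blood endothelium.

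Flt4 (chr11:49609263-49652739, plus strand) encodes the VEGFC and VEGFD receptor VEGFR3. Its level was 50.9, 84.1 and 29.0 normalized CPM in female ventral pools 1 to 3, and a narrow 24.0, 21.3 and 21.4 in the dorsal libraries. Ventral libraries were all higher, but pool 3 by little. This gave a log2 change of 1.14 ± 0.317 (SE, limma adjusted p = 0.0255), and the call was lost when ventral pool 1 or 2 or dorsal pool 2 or 3 was left out. It was also lost without the eBayes trend (limma adjusted p = 0.0583) and with GC and length trends removed. In each of the 6 pools that have a library from each face, the ventral library held more Flt4 than the dorsal one, by 1.12 to 3.96 times. In male hearts the values were 55.1, 27.0, 21.6 and 11.3 ventrally and 34.2, 13.96 and 19.3 dorsally, with full overlap.

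The ligands of VEGFR3 and the proteins that process them were measured in the same libraries. Vegfc averaged 23.1 ± 3.89 normalized CPM in female ventral and 8.66 ± 1.18 in female dorsal libraries (n = 3 each) and was called (log2 change 1.31, adjusted p = 0.00356). Vegfd averaged 31.8 ± 22.6 and 9.61 ± 7.55 (log2 change 1.68, adjusted p = 0.0698). Nrp2, the coreceptor for VEGFC, was higher ventrally (62.8 ± 23.0 against 27.7 ± 5.01, log2 change 1.10, adjusted p = 0.0112). The protease gene Adamts3, whose product cleaves VEGFC, was higher dorsally (1.29 ± 0.687 against 3.60 ± 0.631, log2 change -1.05, adjusted p = 0.0494), and Ccbe1, the cofactor of that cleavage, gave 2.51 ± 2.43 and 0.694 ± 0.656 (log2 change 0.92, adjusted p = 0.197). Kdr, the other VEGF receptor that binds processed VEGFC, averaged 111 ± 31.4 and 95.7 ± 24.2 (log2 change 0.20, adjusted p = 0.580). Over the list of 14 genes of ligands, receptors and partners of the markers, 10 were tested in female hearts, of which 2 were called ventrally and 1 dorsally. Of all genes tested, 27.8% were called in either direction, close to the share in this list. In male hearts 10 of the list were tested and 0 called, where 0 of 14917 genes were. Their male log2 changes were positive for 4 and negative for 6, with a median of -0.26.

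Lyve1 (chr7:110850607-110863239, minus strand), a hyaluronan receptor of lymphatic capillaries, differed most clearly beside Pdpn. Its level was 108, 235 and 113 normalized CPM in the female ventral libraries of pools 1 to 3 and 25.0, 3.62 and 22.7 in the dorsal ones. All ventral libraries were far above all dorsal ones, with dorsal pool 2 lowest. The log2 change was 3.34 ± 0.582 (SE, limma adjusted p = 0.00358), and it kept its call without each library in turn. With the mean log2(normalized CPM + 1) of the epicardial markers as a covariate, the log2 change was 4.32 and no longer called (limma adjusted p = 0.480). That fit called 27 genes in all, and its covariate itself differed between the faces. In male hearts Lyve1 was 158, 55.0, 71.0 and 59.7 ventrally and 68.2, 52.3 and 36.3 dorsally, so only pool 4 ventrally stood clearly above the dorsal range. Ventral libraries were higher than the dorsal library of the same pool in 6 of 6 pools, by 1.05 to 64.9 times. Macrophage markers moved in the same direction: 7 of 12 were called ventrally in female hearts and 0 dorsally, with a median log2 change of 1.56, and their summed level was 297 to 1019 normalized CPM ventrally and 123 to 229 dorsally. Of their most abundant members, C1qb averaged 123 ventrally and 29.8 dorsally and was called (adjusted p = 0.00216). Lyz2 stood at 36.3, 64.3 and 473 ventrally and at 20.9, 28.4 and 43.6 dorsally, with pool 3 far above the other ventral libraries, and was not called (adjusted p = 0.103). The part of macrophages in the Lyve1 change was not tested. Of the hyaluronan genes, Has1 averaged 5.93 ± 3.61 ventrally and 3.17 ± 4.45 dorsally in female hearts (log2 change 1.15, adjusted p = 0.221), and Stab2, a scavenger receptor for hyaluronan, 1.09 ± 0.784 and 2.82 ± 3.39 (log2 change -0.58, adjusted p = 0.478).

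Pdpn (chr4:143267431-143299564, minus strand) encodes podoplanin, a surface glycoprotein that binds CLEC2 on platelets. Its level was 103, 173 and 166 normalized CPM in the female ventral libraries and 39.0, 49.2 and 39.2 in the dorsal ones, with small spread on each face and no overlap. Pdpn thus had a log2 change of 1.74 ± 0.208 (SE, limma adjusted p = 0.000755), the smallest adjusted p of the markers, and the call held without each library in turn. In male hearts Pdpn was 109, 95.8, 291 and 239 ventrally and 86.3, 89.5 and 213 dorsally, so pools 6 and 7 were high and pool 6 was high on each of its faces. Ventral exceeded dorsal in 6 of 6 pools, by 1.07 to 4.25 times. The 10 epicardial markers moved with Pdpn: in female hearts all 10 were called ventrally, with a median log2 change of 2.36, and their summed level was 1737 to 2826 ventrally and 281 to 633 dorsally. Upk3b and Msln, their most abundant members, averaged 856 and 524 ventrally against 177 and 82.8 dorsally. With the mean log2(normalized CPM + 1) of the 10 epicardial markers as a covariate, the log2 change of Pdpn was 0.75. It was no longer called (limma adjusted p = 0.708) in the same fit of 27 calls. Clec1b, which encodes CLEC2, averaged 2.15 ± 0.179 ventrally and 3.78 ± 1.63 dorsally (log2 change -0.55, adjusted p = 0.243).

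**Figure D3:**
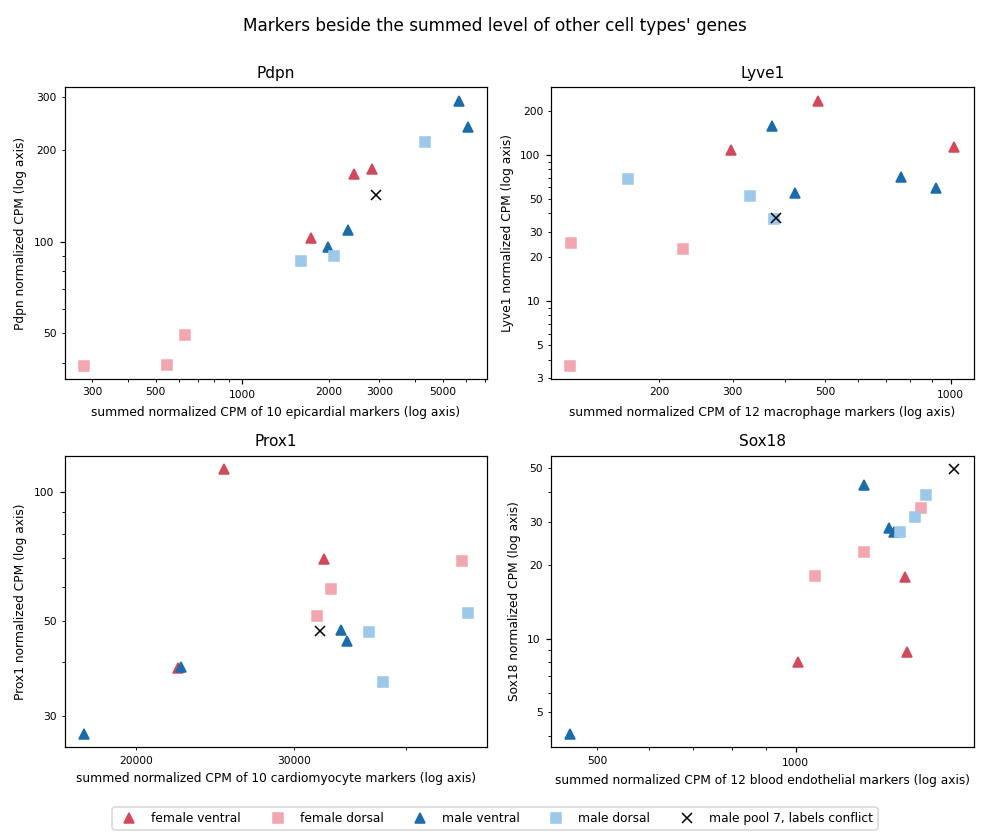
Level of Pdpn, Lyve1, Prox1 and Sox18 in each library (y axes, normalized CPM, log axes) against the summed level of markers of another cell type known to express the gene (x axes, normalized CPM, log axes); triangles are ventral, squares dorsal, crosses the library with conflicting labels, red shades female and blue shades male. Pdpn and the epicardial sum are low together in the 3 female dorsal libraries, and the lowest Sox18 value sits with the lowest blood endothelial sum.

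Ccl21a, the chemokine by which lymphatic vessels attract CCR7-bearing dendritic and T cells, had on its main row the highest mean level per kilobase of the markers in each of the 4 groups, though its values overlapped those of the next in order, and the largest spread between libraries. The main row (ENSMUSG00000094686, chr4:42772860-42773993, minus strand) held 770, 1317 and 44.3 normalized CPM in female ventral pools 1 to 3 and 144, 4.71 and 4.07 in the dorsal libraries. Each ventral library was above the dorsal one of its pool, but ventral pool 3 lay below dorsal pool 1. Its log2 change of 4.47 ± 1.40 (SE, limma adjusted p = 0.0396) was called, and the call was lost without ventral pool 1 or 2 or dorsal pool 2 or 3, and in edgeR's count test. Without the eBayes trend (limma adjusted p = 0.0870), without the filter, and with GC and length trends removed it was lost as well. The scaffold row (ENSMUSG00000095320, scaffold JH584294.1) held 37.9, 91.8 and 5.54 ventrally, 5.52 in dorsal pool 1 and 0 reads in dorsal pools 2 and 3 (log2 change 3.92 ± 0.951, adjusted p = 0.0148). This call was also lost without ventral pool 2 or dorsal pool 2, and in edgeR's count test.

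In male hearts the main Ccl21a row held 508, 59.8, 21.8 and 8.44 normalized CPM ventrally and 213, 0.308 and 0 reads dorsally. Dorsal pool 4 was high and the others were near or at the floor, so the groups overlapped although each ventral library was above the dorsal one of its pool. The scaffold row held 10.8, 1.303, 0 reads and 1.08 ventrally. It had 0 reads in all 3 male dorsal libraries, so that its ventral mean of 3.31 was at least 14.2-fold higher than 3 reads in the shallowest of them. Pool 4 carried this mean, and without it the mean was 0.802 and the bound 3.44-fold. In a fit that pairs libraries by pool as a block, to which male ventral pool 7 adds nothing for want of a dorsal partner, the main row was called in male hearts (log2 change 3.76, adjusted p = 0.00268), where 0.509% of all genes were. The same block in edgeR called 0 of the 9 rows and 0 genes, with an adjusted p of 0.256 for this row.

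Reads of Ccl21a cannot all be assigned to a single gene. Of the 60-base windows of its transcript, 67.6% also occur in transcripts of Ccl21b, Gm10591, Gm13304 or Gm21541. The transcripts of Ccl21a and of Gm21541 (chr4:41903610-41904743, plus strand), a near copy listed in the table, are each 870 bases long and differ at 6 bases, 2 of them in the coding sequence of 402 bases. Coding bases 61 to 210 from GENCODE, counted from 1 at the A of the start codon and read 5′ to 3′, are shown because only the bases in capitals separate the reads of the coding part:
Ccl21a: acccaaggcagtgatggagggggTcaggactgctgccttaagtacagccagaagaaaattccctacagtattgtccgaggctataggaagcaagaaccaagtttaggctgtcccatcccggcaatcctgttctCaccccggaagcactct
Gm21541: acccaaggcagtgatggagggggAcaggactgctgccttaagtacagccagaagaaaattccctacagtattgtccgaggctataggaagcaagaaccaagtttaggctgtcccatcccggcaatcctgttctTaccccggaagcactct
The capitals are the substitutions T84A and C194T, with the base of Ccl21a first. Of the reads counted on the 2 Ccl21a rows and Gm21541 together, the main Ccl21a row took 67.6% to 95.6% and Gm21541 4.4% to 29.0% in the 11 libraries with more than 30 such reads. Gm21541 was also the gene whose pattern over the 14 libraries was nearest to that of the main Ccl21a row. Values of the 3 rows are therefore uncertain as to the gene of origin.

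Reln (chr5:21884454-22344702, minus strand) encodes reelin, a secreted glycoprotein that lymphatic vessels release. Its level was 20.2, 37.1 and 3.55 normalized CPM in female ventral pools 1 to 3 and 6.03, 0.354 and 4.27 in the dorsal libraries. Pools 1 and 2 were higher ventrally and pool 3 was not. With a log2 change of 2.06 ± 0.790 (SE, limma adjusted p = 0.0779) Reln was not called. In male hearts Reln was 17.3, 3.03, 2.21 and 1.25 ventrally and 10.03, 0.841 and 0.0711 dorsally, the last of these a single read. Vldlr, a reelin receptor, averaged 102 ± 21.1 ventrally and 123 ± 36.0 dorsally in female hearts (log2 change -0.25, adjusted p = 0.444), and Dab1, the adaptor that relays the reelin signal, 2.79 ± 2.60 and 0.925 ± 0.486 (log2 change 0.79, adjusted p = 0.254).

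Mmrn1 (chr6:60924976-60989378, plus strand) encodes multimerin 1, which platelets store and lymphatic endothelium produces. Its level was 59.1, 109 and 9.47 normalized CPM in the female ventral libraries and 39.0, 2.80 and 2.32 in the dorsal ones. Dorsal pool 1 lay among the ventral values. The log2 change was 2.37 ± 1.01 (SE, limma adjusted p = 0.107). In male hearts Mmrn1 was 57.0, 21.9, 7.20 and 3.04 ventrally and 52.6, 0.923 and 1.07 dorsally, so dorsal pool 4 was close to its ventral partner and the other dorsal libraries lay below every ventral one. Of 7 megakaryocyte and platelet markers, 1 was called ventrally in female hearts (Pf4, 114 against 28.5 on average), and the other abundant one, Itga2b, averaged 3.84 ventrally and 4.35 dorsally. Treml1, Ppbp, Gp9 and Gp5 had no read in 1 to 3 of the libraries. The related Mmrn2, a gene of blood endothelium, averaged 25.7 ± 5.35 ventrally and 28.6 ± 5.69 dorsally (log2 change -0.15, adjusted p = 0.639).

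The main Ccl21a row, Reln and Mmrn1 shared a pattern over libraries beside the regional one. Ventral exceeded dorsal in 6 of 6 pools for the main Ccl21a row and Mmrn1, and in 5 for Reln. By distance over the libraries, Reln lay slightly nearer to Flt4 (0.747) than to Mmrn1 (0.792). The median distance over all genes was 0.677 from Flt4 and 1.91 from Mmrn1. The same 5 libraries held the highest values of all 3 genes: ventral and dorsal pool 1, ventral pool 2, and ventral and dorsal pool 4. This set was noticed after the values had been seen. Of 15870 genes, 28 (0.176%) have these 5 libraries on top, the 3 markers among them. The scaffold row of Ccl21a does not, with 0 reads in dorsal pool 4. In the dorsal libraries the 3 genes stood at 144, 6.03 and 39.0 normalized CPM in pool 1 and at 213, 10.03 and 52.6 in pool 4, whereas in dorsal pools 2, 3, 5 and 6 Ccl21a did not exceed 4.71, Reln 4.27 and Mmrn1 2.80. From the lowest to the highest of the 14 libraries Mmrn1 spanned a 182-fold range, and the highest Ccl21a value was at least 7939-fold higher than 3 reads in the library with none. The SD of log2(normalized CPM + 1) was 3.53 for the main Ccl21a row, 2.15 for Mmrn1 and 1.54 for Reln, larger than in 99.97%, 99.7% and 99.2% of the genes. Lyve1 (1.39), Sox18 (0.958), Pdpn (0.914) and Flt4 (0.753) varied less.

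**Figure D4:**
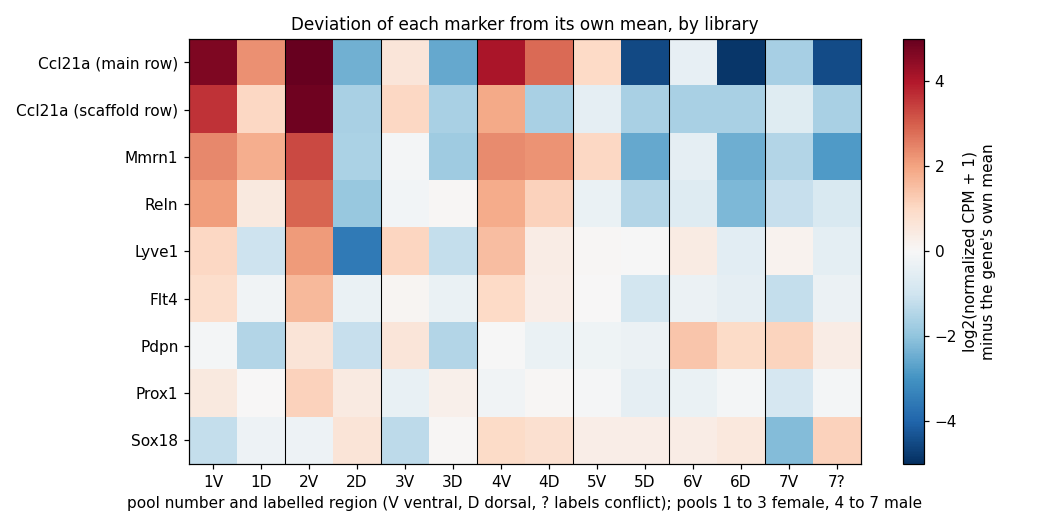
Deviation of each marker from its own mean over the 14 libraries (colour, log2 of normalized CPM + 1) for each library (x axis, pool number and region, with the libraries of a pool side by side). The main Ccl21a row, Mmrn1 and Reln are high in the libraries of pools 1 and 4 and in ventral pool 2, Pdpn is high in pools 6 and 7, and Sox18 is low in ventral pools 1, 3 and 7. The scaffold row of Ccl21a had 0 reads in dorsal pool 4.

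Sequence upstream of these genes is shown because they moved together over libraries while Pdpn followed other libraries. Each run is the 250 bases before the RefSeq start (GRCm38.p6), 5′ to 3′ on the strand of the gene, and capitals mark any match on either strand to the 5 motifs spelled out after the sequences:
Ccl21a, chr4:42773992-42774241, minus strand: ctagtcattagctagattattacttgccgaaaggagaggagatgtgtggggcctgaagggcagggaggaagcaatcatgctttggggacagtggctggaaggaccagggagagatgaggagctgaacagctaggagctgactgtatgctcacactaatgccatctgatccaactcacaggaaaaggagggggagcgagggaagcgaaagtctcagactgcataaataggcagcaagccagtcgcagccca
Mmrn1, chr6:60944067-60944316, plus strand: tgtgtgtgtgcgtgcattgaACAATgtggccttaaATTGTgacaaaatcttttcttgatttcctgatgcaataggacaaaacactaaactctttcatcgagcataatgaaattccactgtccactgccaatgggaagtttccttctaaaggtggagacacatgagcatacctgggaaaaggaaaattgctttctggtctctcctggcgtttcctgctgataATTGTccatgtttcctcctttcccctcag
Reln, chr5:22344706-22344955, minus strand: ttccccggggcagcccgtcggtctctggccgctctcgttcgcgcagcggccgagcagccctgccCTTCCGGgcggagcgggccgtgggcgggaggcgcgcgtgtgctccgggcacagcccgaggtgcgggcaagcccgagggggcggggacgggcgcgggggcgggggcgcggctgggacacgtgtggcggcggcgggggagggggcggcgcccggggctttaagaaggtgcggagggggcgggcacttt
Pdpn, chr4:143299565-143299814, minus strand: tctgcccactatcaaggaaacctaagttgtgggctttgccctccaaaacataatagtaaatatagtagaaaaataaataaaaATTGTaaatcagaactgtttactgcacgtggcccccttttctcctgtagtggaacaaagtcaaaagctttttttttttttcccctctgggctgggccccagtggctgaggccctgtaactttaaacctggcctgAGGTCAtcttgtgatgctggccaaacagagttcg
The Mmrn1 window lies inside the annotated gene body, in an intron of a gene model that starts further upstream, and the Ccl21a window ends within its first exon by 2 bases. The SOX core was searched as ACAAT. Its matches began 230, 215 and 29 bases before the start in Mmrn1 and 168 bases before it in Pdpn, and 27.7% of the 32851 promoter windows hold at least 1. For ETS factors the letters were CCGGAAG, and Reln had a match 186 bases upstream (6.91% of windows hold it). For nuclear receptors the half-site AGGTCA was used, which Pdpn held 34 bases upstream (14.02% of windows). The GATA site was taken as AGATAA (9.99% of windows) and found in none of the 4 windows printed, and the same holds for the TATA box, taken as TATAAA (12.4% of windows). The Ccl21a window held none of the 5 motifs. The GC content was 80.0% for Reln, 52.8% for Ccl21a, 43.2% for Pdpn and 42.4% for Mmrn1. None of the 5 motifs occurred in the windows of all 3 genes with a shared pattern. Only these 5 motifs in 250 bases were searched, with the Mmrn1 window in an intron. Whether the 3 genes share a regulator was not tested.

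In male hearts no row and no gene was called between the faces by limma (0 of 14917, with 2083 genes and 0 of the 9 rows at an unadjusted p under 0.05, and 0 called by edgeR). The share called among all genes was therefore 0%. The log2 changes of the markers ran from 2.95 (main Ccl21a row) and 1.43 (scaffold row) through 1.28 (Mmrn1), 0.78 (Reln), 0.61 (Lyve1), 0.47 (Pdpn) and 0.22 (Flt4) to -0.20 (Prox1) and -0.68 (Sox18). All 95% intervals included 0. That of Lyve1 ran from -0.16 to 1.39 and that of Pdpn from -0.49 to 1.43, while that of the main Ccl21a row spanned -1.08 to 6.97. Ventral and dorsal values of every row overlapped, where 6.18% of all genes had every ventral library above every dorsal one and 7.82% the reverse. The epicardial sum was 1986 to 6080 normalized CPM ventrally and 1600 to 4311 dorsally, and that of macrophage markers 372 to 920 and 168 to 377.

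Across both sexes, with sex as a covariate, 3 of the 9 rows were called, all higher ventrally: Lyve1 (log2 change 1.88, limma adjusted p = 0.0209), Pdpn (1.06, adjusted p = 0.0299) and the scaffold row of Ccl21a (2.59, adjusted p = 0.0232). Over all genes 18.9% of 15772 were called, 9.8% higher ventrally and 9.06% higher dorsally. Ventral and dorsal values of the 13 libraries overlapped for all 9 rows, and lay apart in 1.22% of all genes with ventral on top and in 2.17% with dorsal on top. Pairing by pool as a block gave 6 calls, Flt4 (adjusted p = 0.0291), Mmrn1 (0.0281) and the main Ccl21a row (0.0221) in addition, in a fit that called 14.2% of all genes. Without that block, the call of Pdpn held in 4 of 13 fits with a library left out (female ventral pool 1, male ventral pool 4 or 5, or male dorsal pool 6) and was lost in the others, without the eBayes trend (adjusted p = 0.0502) and with the blood endothelial covariate (0.0584). The fit with that covariate also called Flt4 (limma adjusted p = 0.0290) and the main Ccl21a row (0.0278). It called 14.6% of all genes. Lyve1 lost its call without female ventral pool 2 (adjusted p = 0.0531), and the scaffold row without female ventral pool 2 or female dorsal pool 2 or 3 (0.0512 to 0.0602). The epicardial covariate ended all 3 calls, in a fit that called 0 of 15772 genes, so the loss was not particular to these rows. By pool and without any fit, ventral exceeded dorsal in 6 of 6 pools for 5 rows, Flt4, Lyve1, Pdpn, Mmrn1 and the main Ccl21a row, a pattern that 9.32% of 15870 genes show. Reln did so in 5 pools, Prox1 in 3 and Sox18 in 2, and the scaffold row in 5 with the other pool at 0 reads on each face.

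Whether the regional change differs between the sexes was tested by the interaction over the 13 libraries of settled region, and 0 of the 9 rows were called by limma (2 had an unadjusted p under 0.05), where 2.73% of all genes were, 2.12% with the more ventral change in males and 0.615% with the more ventral change in females. The largest difference with a small standard error was that of Lyve1, whose change was 2.73 lower on the log2 scale in male than in female hearts (log2 difference -2.73 ± 0.764, adjusted p = 0.0775). Pdpn followed with -1.27 ± 0.556 (adjusted p = 0.286). Both were called once pool number was a block, Lyve1 at -2.60 (adjusted p = 0.0445) and Pdpn at -1.45 (adjusted p = 0.00174), where 5.1% of all genes were. Lyve1 also passed without a block when the epicardial level was a covariate, when the library with conflicting labels was taken as ventral, and when male ventral pool 4 was left out. In the main Ccl21a row the difference was -1.53 with a 95% interval from -7.29 to 4.24, too wide at this number of libraries to place it.

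Levels of the markers between the sexes, with region as a covariate, gave 0 calls among the 9 rows by limma (3 had an unadjusted p under 0.05; edgeR called 1, the scaffold row of Ccl21a), where 10.9% of all genes had a call (4.4% with the male and 6.54% with the female level on top). Prox1 was lower in male hearts by a log2 change of -0.61 ± 0.212 (adjusted p = 0.0787), with female libraries at 38.7 to 113 normalized CPM and male ones at 27.2 to 52.1. Pdpn was higher in male hearts by 0.79 ± 0.315 (adjusted p = 0.126), and 5 of the 10 epicardial markers were called higher in males in the same fit, with a median log2 change of 1.22. The scaffold row of Ccl21a differed by -2.22 ± 0.714 (adjusted p = 0.0585). Female and male libraries have different pool numbers and differently written titles, so sex and set of pools cannot be told apart for any gene. The same limit holds for the difference in regional change between the sexes.

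By the mean absolute difference of centred log2 values over the 14 libraries, the genes nearest to each marker are given as a description of likeness only, and some were near to several markers. Nearest to Pdpn were Pltp, Cercam and Nkain4, at 0.157 to 0.170 against a median distance of 0.797 over all genes. Nearest to Lyve1 were Stab1, a scavenger receptor of macrophages and lymphatic or sinusoidal endothelium, at 0.379, then Gm29055 and Tnxb. Flt4 lay nearest to Dock9 (0.256), Gm16344 and Gm12744, Prox1 to Cenpk (0.192), Prkcq and Strn4, and Sox18 to Slc2a12 (0.280), Nxpe4 and Coq8a. Reln lay nearest to the sodium channel gene Scn3a (0.357), Hist1h2an and Tc2n, and Mmrn1 to Tc2n (0.853), Gm21541 and Scn3a. The main Ccl21a row lay nearest to Gm21541 (0.769), Gm10175 and Tc2n, and the scaffold row to Gm10221 (0.701), Hist1h2an and Scn3a. Among the markers themselves Prox1 and Flt4 were the closest pair (0.414), followed by Flt4 with Reln (0.747) and Flt4 with Lyve1 (0.748). The median distance over all genes was 0.497 from Prox1 and 0.677 from Flt4. Reln and Lyve1 thus lay farther from Flt4 than the median gene did.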

How the data were processed

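The authors trimmed adapters with Cutadapt (reads under 30 bases discarded) and quantified reads per gene with RSEM (1.3.1 in the submitters' processing notes; the study's methods name another version) on the GRCm38 transcriptome. Genes under 1 CPM in all but 2 or fewer libraries were dropped, and limma was used for normalization. Each deposited signal value, in normalized CPM, equals reads plus 0.5 over an effective library size, so that read numbers could be recalculated, whole to within 0.02 reads, in 100% of cells of the table. Strand use in counting was not given in the sources used here; 1.59% of Prox1 exon bases and 1.04% of Reln exon bases overlap an antisense gene. Library depth was 13.9 to 25.2 M reads, and 3 reads was the floor; this floor covers counting error only, whereas the intervals of log2 changes cover the spread between libraries.

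Groups followed the sample labels. Groups were compared by linear models (limma 3.58.1, R 4.3.3; empirical Bayes with trend, two-sided) on log2(normalized CPM + 1), which understates changes of low genes, for genes reaching 1 in 3 or more of the libraries fitted, with Benjamini-Hochberg adjustment over all of them and a threshold of 0.05. The scripts were tested on simulated counts. Positions, exon lengths and transcripts came from GENCODE M21 (GRCm38), upstream windows from RefSeq; of the 8 symbols 6 had an upstream window. Alternatives were other pseudocounts, filters, scalings, edgeR 4.0.16 on recovered reads, removal of GC and length trends (splines, 5 degrees of freedom), covariates from marker lists, left-out libraries and a replicate block; edgeR with the block was chosen after seeing the data. Deviations from the group means correlated between libraries of the same number (15870 genes, r = 0.186, 0.169, 0.269, 0.425, 0.175 and 0.349 for pools 1 to 6). The numbers were taken to pair the libraries. Correlations between libraries of different numbers were not computed, so this pairing is an assumption.

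Named genes are the 8 markers, other lymphatic genes and partners of the markers, the 2 most abundant genes of each marker list, and the 3 genes nearest in pattern to each marker; Ryr2, Treml1, Ppbp, Gp9 and Gp5 were named after their values were seen. The members and lists were chosen with earlier results of these data known. Ccl21b, Ccl21c, Ccr7, Lrp8, Has2, Th and Tubb3 were not analysed here. Fibroblast markers (8 genes; 5 called ventrally in female hearts, median log2 change 0.86) and Schwann cell or neuron markers (4 with rows, 2 tested, 0 called by limma and 0 at an unadjusted p under 0.05) complete the lists.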

Additional observations from a re-analysis of the deposited data

Results flagged for a closer look

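The male library of pool 7 with conflicting region labels entered no comparison, and 8 of the 9 rows were above the floor in it. It held 47.2 normalized CPM of Prox1, 21.6 of Flt4, 37.1 of Lyve1, 142 of Pdpn, 1.99 of Reln and 49.6 of Sox18, the last being the highest Sox18 value of all 14 libraries. The main Ccl21a row stood at 0.367 (9 reads) and Mmrn1 at 0.599 (15 reads), and the scaffold row of Ccl21a had 0 reads. Against the male ventral library of the same pool, Flt4, Sox18, Prox1 and Reln were higher and Lyve1, Pdpn, Mmrn1 and Ccl21a lower. Its epicardial markers summed to 2908 normalized CPM, its macrophage markers to 381 and its blood endothelial markers to 1738, the highest blood endothelial sum of all libraries.

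Among the 9 rows, no male ventral value (the only group of 4 or more libraries) stood apart by Dixon's criterion on the log2 scale. The interaction of region and sex over the 13 libraries of settled region passed an adjusted p of 0.05 in 0 of the 9 rows.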

How the results depend on the processing

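In female hearts, 6 rows and 4007 genes were called. Without the eBayes trend 3 rows and 3371 genes (23.4%) were called. With GC and length trends removed it was 3 rows and 3624 genes (25.2%). Fits with those trends removed tested 8 rows, as the scaffold Ccl21a row has no GC value. With the epicardial list as a covariate 0 rows and 27 genes were called. The blood endothelial list as a covariate gave 8 rows and 4087 genes (28.4%). Reln (limma adjusted p = 0.0286) and Mmrn1 (0.0390) were among these rows. Without single libraries, 2 to 7 rows and 2158 to 3845 genes were called (fewest rows without dorsal pool 2, fewest genes without ventral pool 2). In male hearts (0 rows, 0 genes), the block gave 1 row and 76 genes, with GC and length also removed 1 row and 27 genes, eBayes without trend 1 gene, GC and length alone 1 gene, and left-out libraries 0 to 12 genes (12 without dorsal pool 6) and 0 rows. With the block in edgeR, chosen after seeing the data, 6 rows and 3675 genes were called in female hearts and 0 and 0 in male hearts. Across both sexes (3 rows, 2974 genes), the epicardial covariate gave 0 and 0 and the block 6 rows and 2234 genes. There the blood endothelial covariate gave 4 rows and 2307 genes. The block with GC and length gave 5 rows and 1806 genes. Left-out libraries gave 0 to 5 rows and 1429 to 3646 genes. Among these, 0 rows were called without female ventral pool 2, 1 without female dorsal pool 2 or 3, and 5 without male dorsal pool 4. For the difference between the sexes (0 rows, 431 genes), the epicardial covariate gave 1 row and 528 genes. The block gave 2 rows and 804 genes, and with GC and length 3 rows and 769 genes. Taking the conflicting library as ventral gave 1 row and 512 genes. Left-out libraries gave 0 to 1 rows and 260 to 447 genes. Between the sexes (0 rows, 1726 genes), edgeR gave 1 row and 1540 genes, and the blood endothelial covariate 1 row and 1758 genes. The conflicting library gave 1 row each as dorsal (2048 genes) or as ventral (2012 genes). Left-out libraries gave 0 to 2 rows and 1303 to 1859 genes. The block changed no call other than those given.

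Some directions turned. Prox1 turned in female hearts with the epicardial covariate (-0.32) and without ventral pool 2 (-0.19; other left-out libraries up to 0.57), in male hearts with the blood endothelial covariate (0.0033), and across the sexes under quantile normalization (0.053), edgeR (0.043), the epicardial (0.0090) and blood endothelial (0.14) covariates, the block (0.075), the block with GC and length (0.074), the conflicting library as ventral (0.0022) and 5 left-out libraries (0.0027 to 0.12). In male hearts Pdpn turned with the epicardial covariate (-0.14), Sox18 with the blood endothelial one (0.057), and Flt4 without ventral pool 4 (-0.15) or dorsal pool 5 (-0.06; others up to 0.58). With the epicardial covariate Pdpn also turned across the sexes (-0.058, from a called 1.06) and between them (-0.10), as did Mmrn1 between the sexes (0.42) and the regional difference of Sox18 (-0.23). Lyve1 turned between the sexes without female dorsal pool 2 (-0.071; others up to 0.75). The difference between the sexes turned without male dorsal pool 4 for Mmrn1 (0.49; others down to -2.25) and the main Ccl21a row (0.98; others down to -3.11), and for the scaffold row in edgeR (4.45, from -2.49). Apart from the alternatives that removed genes or libraries, the cause was not tested.

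At these depths a marker with 0 reads cannot be told from one below 0.135 to 0.253 normalized CPM, which touches the main Ccl21a row in 1 library, its scaffold row in 7 and Reln, with 1 read, in 1. Beside the markers, Foxc2 had 3 reads or fewer in 4 libraries and Ccbe1 in 3.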

Other observations

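Among the other lymphatic genes, the valve integrin gene Itga9 averaged 44.3 ± 12.4 normalized CPM in female ventral and 24.9 ± 13.1 in female dorsal libraries (SD, n = 3 each, limma adjusted p = 0.0689), and the chemokine scavenger Ackr2 2.88 ± 1.54 and 2.82 ± 1.46 (adjusted p = 0.996). Across both sexes, Fxyd6 (log2 change 0.72) was higher ventrally, and Gja1 (-0.91), Sox7 (-1.41) and Sox17 (-1.29) higher dorsally. Of the partners, Vegfc (log2 change 0.81, limma adjusted p = 0.0366) and the hyaluronan synthase gene Has3 (0.68, adjusted p = 0.0413) were higher ventrally in that fit, and between the sexes Has1 (1.87, adjusted p = 0.0141) and Nrp2 (1.32, adjusted p = 0.00303) were higher in male hearts. Has3 was near the floor, with 3 reads or fewer in 5 of the 14 libraries.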
